A study of Mus musculus with 8 samples.

Results

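The genes of 9 hematopoietic cytokine receptors (Flt3, Csf1r, Csf3r, Csf2rb, Epor, Il7r, Il6ra, Il6st and Ifngr1) were followed across 8 bulk RNA-seq libraries of fetal liver LT-HSCs, the long-term repopulating stem cells of the blood. The genes were chosen by name, and all 9 were found among the 55487 gene identifiers of the count table through the mouse annotation of GRCm38. All 9 also passed the minimum of 10 reads over the 8 libraries, which 20610 genes passed. Each library held 500 cells sorted at E14.5 as lineage- SCA1+ cKIT+ CD48- CD150+. There were 3 libraries of IκBα WT, 3 of HET and 2 of KO embryos, and the embryos carried WT, HET or KO alleles of Nfkbia, the gene of the NF-κB inhibitor IκBα, in a germline line in which the deletion is not restricted to blood cells. WT1, WT2 and HET1 came from males and their labels name total RNA, whereas WT3, HET2, HET3, KO1 and KO2 came from females and their labels name polyA RNA. Sex and this label therefore coincide, both KO libraries are female, and their effects cannot be told apart. A further KO sample was discarded by the study for its sequencing quality.

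Cytokine receptors carry signals from soluble factors into blood cells. FLT3 and CSF1R are receptor tyrosine kinases, the receptors of FLT3 ligand and of CSF1 and IL-34. CSF3R, EPOR, CSF2RB, IL7R, IL6RA and IL6ST are class I cytokine receptors, which have no kinase of their own and signal through bound JAK kinases and STAT factors, and IFNGR1 is the ligand-binding chain of the interferon-gamma receptor. Several act as shared chains: CSF2RB is the common beta chain for IL-3, IL-5 and GM-CSF, and IL6ST (gp130) is the signalling chain for IL-6, IL-11 and related factors, with IL6RA as the IL-6 binding chain. The fetal liver is the main site where blood is made before birth, and its stem cells lie next to abundant erythroid cells, macrophages and hepatocytes.

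The libraries held between 17895973 and 21720972 reads counted on genes, so that 3 reads, the limit that a count of 0 allows, correspond to 0.138 to 0.168 CPM, the count of a gene scaled to a common library size. Intervals and limits of this kind cover counting error only, since the cDNA was amplified by PCR without molecular identifiers. The deleted gene Nfkbia had 1 read in KO1 and 0 in KO2, against 243 to 1621 reads in the 6 WT and HET libraries. Y-linked reads followed the sex labels, with 6418 to 8134 reads in the 3 male and 0 to 2 in the 5 female libraries. The 11 LT-HSC marker genes stood at a summed level of 1825, 1897 and 276 CPM in WT1, WT2 and WT3, of 658, 576 and 204 CPM in HET1, HET2 and HET3, and of 1716 and 1125 CPM in KO1 and KO2. WT3 and HET3 were thus the lowest, and in HET3 the markers Ly6a, which encodes the sorted antigen SCA1, and Hoxb5 had no read. Cd48, whose product was excluded by the sort, was at 45.8 to 89.1 CPM in every library. The same 2 libraries held the most transcripts of 8 hepatocyte markers, 1483 CPM in WT3 and 753 CPM in HET3, against 49.8 to 299 CPM in the other 6. Because the libraries WT3 and HET3 stand apart from their labels in this way, the fitted value of KO against WT/HET is given with and without them for each receptor and for each other gene named from that fit. Both KO libraries are female, so with sex in the model this value rests on the female references WT3, HET2 and HET3. Without WT3 and HET3, it rests on HET2 as the only female reference.

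Compared per kb of exon, Ifngr1 and Epor were the most abundant of the 9 transcripts. Ifngr1 averaged 92.1 CPM per kb ± 32.9 (SD, n = 8) and Epor 69.8 ± 40.0 (SD, n = 8), with overlapping ranges and Ifngr1 the higher in 7 of 8 libraries. A gap followed, since the lowest Epor level, 21.9 CPM per kb, was above the highest level of Csf3r, 11.4 CPM per kb, the next in order. Csf3r (mean 5.72), Flt3 (5.67), Csf2rb (1.81), Csf1r (1.54), Il6st (1.04) and Il6ra (0.342 CPM per kb) came next, and each overlapped its neighbour in range. Csf3r was above Flt3, Csf2rb above Csf1r and Csf1r above Il6st in only 4 of 8 libraries each, so the order of these neighbours changed with the library. Il7r was the lowest, at a mean of 0.0339 CPM per kb. The plot of levels per exon length shows the wide spread within a gene, which for Csf3r ran from 0.0329 to 11.4 CPM per kb.

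**Figure D1:**
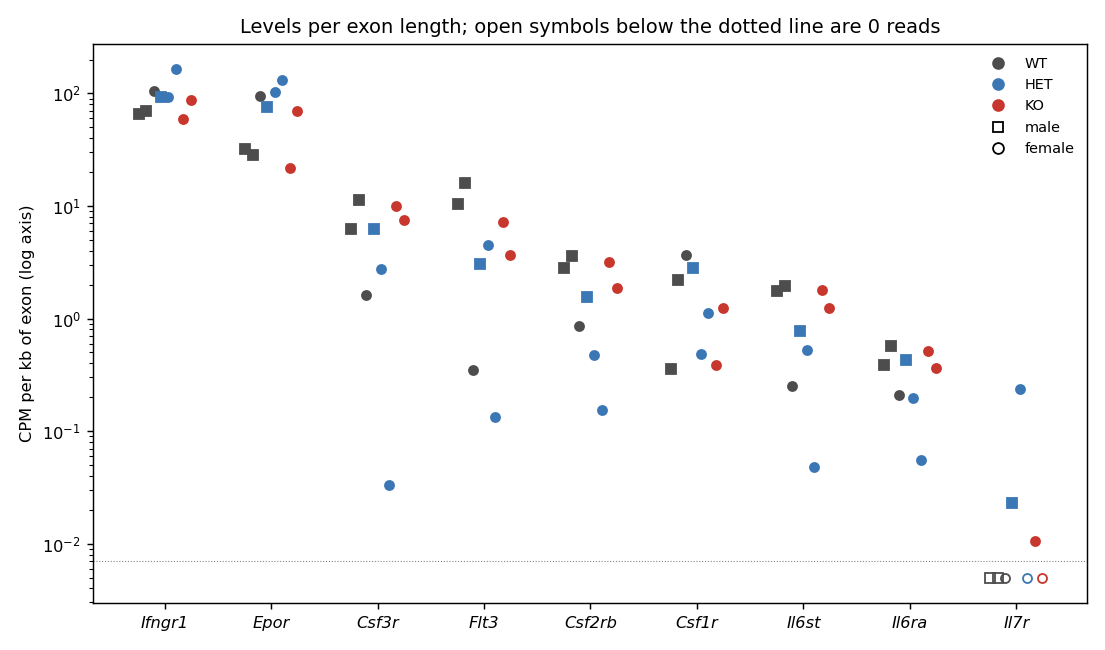
Level of each receptor gene in CPM per kb of exon (log axis) in the 8 libraries, one symbol per library, coloured by genotype and shaped by sex; open symbols are libraries with 0 reads. Ifngr1 and Epor lie above all libraries of the other 7 genes, Il7r is at 0 in 5 libraries, and the lowest points of Csf3r, Flt3, Csf2rb, Il6st and Il6ra all belong to HET3.

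Il6st, the gp130 gene on chromosome 13 (GRCm38, 112464070 to 112510086, plus strand), was at 19.3, 21.7 and 2.81 CPM in WT1, WT2 and WT3, at 8.67, 5.85 and 0.534 CPM in HET1, HET2 and HET3, and at 19.8 and 13.8 CPM in KO1 and KO2. Both KO libraries lay above the 3 female WT and HET libraries and within the range of the males. With sex in the model, the fitted log2 fold change of KO against WT/HET was 2.45 (SE 0.777), with an adjusted p of 0.152 by the quasi-likelihood test of edgeR with Benjamini-Hochberg adjustment. DESeq2 with apeglm gave 1.85 with an adjusted p of 0.0245. Without WT3 and HET3 the edgeR value was 1.49 (SE 0.644), and without sex in the model it was 0.77 (SE 0.995). Across the libraries Il6st ran in nearly the order of the summed LT-HSC markers. HET3 and WT3 were lowest, HET2 and HET1 next, KO2 in between, and KO1, WT1 and WT2 highest on both measures. In bulk libraries a smaller share of cells of a type and less RNA per cell cannot be told apart, and the part of the marker difference in the result was not tested.

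Il6ra, the IL-6 binding chain on chromosome 3 (89864059 to 89913196, minus strand), was scarce. It had 3.37, 4.93 and 1.82 CPM in WT1, WT2 and WT3, 3.72, 1.72 and 0.475 CPM in HET1, HET2 and HET3, and 4.45 and 3.15 CPM in KO1 and KO2, from 8 to 118 reads a library. Again both KO libraries were above the 3 female references and overlapped the males, 3.37 to 4.93 CPM. In the fit it was higher in KO by a log2 fold change of 1.50 (SE 0.611, edgeR adjusted p = 0.18). It was 1.12 without WT3 and HET3. A part of its exons, 242 bases, overlaps Gm42809 on the opposite strand, and reads there are uncertain since the counting strand is not stated.

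Csf2rb, the common beta chain on chromosome 15 (78325752 to 78353847, plus strand), had the smallest p of the 9 genes in edgeR. It was at 20.6, 26.1 and 6.25 CPM in WT1, WT2 and WT3, at 11.3, 3.43 and 1.13 CPM in HET1, HET2 and HET3, and at 23.0 and 13.5 CPM in KO1 and KO2. The 3 HET libraries lay between 1.13 and 11.3 CPM, and both KO libraries were above all of them, while WT1 and WT2 lay on either side of KO1. The fitted log2 fold change of KO against WT/HET was 2.33 (SE 0.638, adjusted p = 0.148 in edgeR), and DESeq2 with apeglm gave 1.90 with an adjusted p of 0.0131. It was 2.38 (SE 0.667) without WT3 and HET3, the value that moved least of the 4 genes higher in KO at an unadjusted p under 0.05, and 0.67 without sex in the model. Against WT alone the log2 fold change was 1.55 (SE 0.455) and against HET alone 2.99 (SE 0.694), 2 contrasts that share the KO libraries and whose difference was not tested. The only female reference against WT alone is WT3, at 6.25 CPM, and WT1 and WT2 were at 20.6 and 26.1 CPM. Csf2ra and Il3ra, which encode alpha chains that pair with it, had fitted log2 fold changes of 0.78 and 1.89 (edgeR adjusted p = 0.17 and 0.152), and of 0.58 and 0.94 without WT3 and HET3. Csf2rb2, a mouse paralog that serves IL-3 alone, stayed at 0 to 4.72 CPM. Of the 50-base windows of Csf2rb transcripts, the read length here, 12.3% also occur in transcripts of other genes, nearly all in Csf2rb2, and such reads were lost or uncertain under unique mapping.

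Csf3r, the G-CSF receptor gene on chromosome 4 (126024550 to 126044440, plus strand), had its lowest value at 2 reads. It was at 22.4, 40.9 and 5.88 CPM in WT1, WT2 and WT3, at 22.4, 9.89 and 0.119 CPM in HET1, HET2 and HET3, and at 36.1 and 27.2 CPM in KO1 and KO2. Both KO libraries were above 5 of the 6 references, and WT2 was higher than either. In edgeR its log2 fold change in KO was 2.57 (SE 1.02, adjusted p = 0.175), and it was 1.35 with an adjusted p of 0.0596 in DESeq2 with apeglm, and 1.65 (SE 0.513) without WT3 and HET3. The summed level of the 10 neutrophil granule markers did not share its order. It was highest in WT3 (931 CPM) and lowest in HET3 (121 CPM), both libraries low in Csf3r. In KO1 and KO2 it was 570 and 150 CPM. The single markers differed. Ltf was lowest in HET3 (no read) and WT3 (0.156 CPM), as Csf3r was, but highest in WT1 (19.7 CPM). Ltf was singled out after its values were seen, and the part of these transcripts in the Csf3r values was not tested. The late granule genes Ngp and Camp had 8.27 and 35.0 CPM in KO1 and no read in KO2, while Csf3r was at similar levels in both. Of the 50-base windows of Csf3r, 10.7% also occur in other genes, most of them in a processed pseudogene on chromosome 19.

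Flt3, the FLT3 ligand receptor gene on chromosome 5 (147330741 to 147400489, minus strand), ran from 0.83 to 98.4 CPM. It was at 64.7, 98.4 and 2.14 CPM in WT1, WT2 and WT3, at 18.8, 27.9 and 0.83 CPM in HET1, HET2 and HET3, and at 44.7 and 22.9 CPM in KO1 and KO2. The KO values fell inside the WT and HET range, and inside the female range at KO2, below HET2. The fitted log2 fold change of 1.71 (SE 1.22, edgeR adjusted p = 0.391) became 0.24 without WT3 and HET3 and -0.07 without sex in the model. Against WT alone it was 3.99 (SE 0.6, adjusted p = 0.0361 in edgeR), a contrast in which WT3, at 2.14 CPM, is the only female reference. Without HET2, the highest female reference, it was 4.50 (SE 0.86) and passed the call rule in edgeR. Flt3 was highest in WT1 and WT2, which also had the most LT-HSC marker transcripts. The 8 markers of lymphoid-primed progenitors summed to 59.5 to 137 CPM in WT, 53.2 to 131 CPM in HET and 89.6 and 75.9 CPM in KO1 and KO2. Of these, Rag1 and Ly6d had no read in any library. Satb1, a chromatin organizer gene of early lymphoid cells, was at 26.6, 51.9 and 4.84 CPM in WT, at 21.1, 15.0 and 1.01 CPM in HET and at 27.3 and 10.6 CPM in KO, and like Flt3 it was highest in WT2 and lowest in HET3. Notch1 was highest in WT1 (12.8 CPM) and had no read in HET3. Cd48 and Ighm of the same list were highest elsewhere, Cd48 in HET1 (89.1 CPM) and Ighm in HET2 (20.1 CPM). Satb1 and Notch1 were singled out after their values were seen, and the part of the list in the Flt3 values was not tested.

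Epor, the erythropoietin receptor gene on chromosome 9 (21958897 to 21963506, minus strand), ran the other way. It was at 63.6, 56.1 and 190 CPM in WT1, WT2 and WT3, at 151, 203 and 265 CPM in HET1, HET2 and HET3, and at 43.6 and 138 CPM in KO1 and KO2. KO1 was below all 6 references, and KO2 lay between the WT males and the HET libraries. All 3 HET libraries were above WT1 and WT2. The fitted log2 fold change of KO against WT/HET was -1.28 (SE 0.558, adjusted p = 0.198 in edgeR), and -1.19 without WT3 and HET3. The value turned on the KO library, since it was -0.67 (SE 0.553) without KO1 and -2.33 (SE 0.621) without KO2. Epor followed Klf1, an erythroid transcription factor gene among the 10 erythroid markers, which was at 114, 85.4 and 1040 CPM in WT1, WT2 and WT3, at 731, 941 and 1227 CPM in the HET libraries, and at 36.2 and 518 CPM in KO1 and KO2. Klf1 was singled out after its values were seen. The summed list was at 1311 to 3649 CPM in WT, 4194 to 15000 CPM in HET and 741 and 3436 CPM in KO, and its highest library, HET1, was not the highest for Epor. In HET against WT, 9 of the 10 erythroid markers were higher at an unadjusted p under 0.05, as Epor was, beside 371 of all 20610 genes. The part of the erythroid transcripts in the Epor values was not tested.

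Promoter windows of RefSeq (GRCm38.p6, 250 bases before to 50 after the start site) were found for 7 of the 9 genes, all but Csf1r and Csf2rb. They were searched on both strands for 5 short motifs. AGATAA is read by the GATA factors of blood cells. The letters GAGGAA are a core of sites for PU.1 and other ETS factors. NF-κB sites were sought as GGGNNNTTCC and sites of STAT factors as TTCNNNGAA. The GC box was sought as GGGCGG. No marked matches overlapped. The windows of Epor, Csf3r and Il6ra are shown because they are the ones with a match to the GATA, PU.1 or NF-κB letters, and because Epor differed in direction from the other 2 across these libraries. Capitals mark those matches, and lower case the rest.
Epor, chr9:21963527-21963826, minus strand: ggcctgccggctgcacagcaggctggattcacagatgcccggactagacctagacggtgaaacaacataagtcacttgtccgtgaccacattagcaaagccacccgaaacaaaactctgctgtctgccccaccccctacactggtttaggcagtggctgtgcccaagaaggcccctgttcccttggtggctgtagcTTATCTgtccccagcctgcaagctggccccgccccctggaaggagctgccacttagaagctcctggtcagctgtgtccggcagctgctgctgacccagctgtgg
Csf3r, chr4:126024409-126024708, plus strand: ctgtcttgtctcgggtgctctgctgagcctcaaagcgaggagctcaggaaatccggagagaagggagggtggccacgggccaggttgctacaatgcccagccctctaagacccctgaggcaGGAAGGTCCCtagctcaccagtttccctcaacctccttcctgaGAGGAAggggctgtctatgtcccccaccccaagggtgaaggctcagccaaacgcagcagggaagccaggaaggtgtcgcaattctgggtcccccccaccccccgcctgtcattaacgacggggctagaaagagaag
Il6ra, chr3:89913147-89913446, minus strand: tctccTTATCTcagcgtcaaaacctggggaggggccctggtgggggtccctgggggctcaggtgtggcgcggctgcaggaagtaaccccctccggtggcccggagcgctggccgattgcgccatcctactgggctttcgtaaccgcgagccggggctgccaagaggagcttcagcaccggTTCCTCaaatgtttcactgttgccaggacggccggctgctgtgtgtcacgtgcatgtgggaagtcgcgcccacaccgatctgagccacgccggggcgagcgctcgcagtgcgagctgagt
The Epor window held the GATA letters, as TTATCT, 54 bases before the start site, and Il6ra held them 245 bases before it. PU.1 letters lay 86 bases before the start of Csf3r and 70 bases before that of Il6ra, and Csf3r held the NF-κB letters 129 bases before its start. These distances are counted from the RefSeq start site, which differs from the gene positions given above for Csf3r and Epor. In Csf3r that site lies inside the gene position, and so do the PU.1 letters. The whole Epor window lies outside its gene position. Of 32851 mouse promoter windows, 11.2% held the GATA letters, 28.3% the PU.1 letters and 5.56% the NF-κB letters, so matches of this kind are common by letters alone. GC boxes stood in Epor, Ifngr1 and Il6st (35.7% of all windows) and the STAT letters in Il7r (8.3%). A match describes the letters only.

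Ifngr1, the interferon-gamma binding chain on chromosome 10 (19591949 to 19610229, plus strand), was high and even. It was at 186, 200 and 301 CPM in WT1, WT2 and WT3, at 263, 262 and 466 CPM in HET1, HET2 and HET3, and at 169 and 252 CPM in KO1 and KO2. Its highest library was 2.76-fold above its lowest, the smallest range of the 9 genes. Both KO libraries were below the 3 female references, by a narrow margin at KO2. The fitted log2 fold change of KO against WT/HET was -0.71 (SE 0.297, adjusted p = 0.187 in edgeR) and became -0.35 without WT3 and HET3, -0.43 without HET3 alone and -0.45 without KO1. Its partner chain gene Ifngr2 stayed between 49.6 and 65.1 CPM in all libraries, with a fitted log2 fold change of 0.13, and 0.24 without WT3 and HET3. Irf1, a target gene of the pathway, had a log2 fold change of 2.92 (SE 0.721, edgeR adjusted p = 0.148), and 2.03 without WT3 and HET3.

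Csf1r, the CSF1 receptor gene of monocytes and macrophages on chromosome 18 (61100598 to 61132149, plus strand), overlapped between all 3 genotypes. It was at 2.06, 12.8 and 21.3 CPM in WT1, WT2 and WT3, at 16.3, 2.77 and 6.41 CPM in HET1, HET2 and HET3, and at 2.25 and 7.18 CPM in KO1 and KO2. The fitted log2 fold change of -1.11 (SE 1.05, edgeR adjusted p = 0.523) changed sign to 0.73 (SE 1.23) without WT3 and HET3. Its order was close to that of some tissue macrophage genes. Adgre1, which encodes F4/80, was at 3.23, 10.3 and 48.0 CPM in WT1, WT2 and WT3, at 15.1, 3.18 and 7.95 CPM in the HET libraries and at 2.20 and 6.98 CPM in KO1 and KO2, and Timd4 and Cd5l were also highest in WT3. Not all 13 macrophage and monocyte markers shared this order. Lyz2, the most abundant of them, was at 489 CPM in WT1, where Csf1r was lowest, and at 182.5 CPM in WT3, where Csf1r was highest. Ccr2 was highest in HET1 (20.05 CPM). All 13 markers had reads in every library, with a summed level of 543 to 743 CPM in WT, 123 to 507 CPM in HET and 418 and 375 CPM in KO. Adgre1 was named after its values were seen, and the part of these transcripts in the Csf1r values was not tested. Of the Csf1r windows of 50 bases, 14.3% also lie in Hmgxb3, which overlaps the gene on the opposite strand.

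Il7r, the IL-7 receptor alpha chain gene of early lymphoid cells on chromosome 15 (9505788 to 9530176, minus strand), was near the limit of detection. It had 25 reads in all, of which 22 were in HET2 (1.11 CPM), 2 in HET1 (0.106 CPM) and 1 in KO1 (0.0489 CPM). The other 5 libraries had none, which allows a level of up to 0.138 to 0.153 CPM in them by library size. HET2 also held the B-cell precursor transcripts Igll1 (5.10 CPM), Cd79a (4.49 CPM) and Vpreb2 (2.47 CPM), which were at 0 to 0.392 CPM in each of the other libraries. Over the whole list of 12 B and T cell markers, which is mostly Cd79b and Lck, the sum was 15.9 to 121 CPM in WT, 7.53 to 51.5 CPM in HET and 104 and 67.1 CPM in KO, and Cd3e had no read anywhere. The fitted log2 fold change of -3.63 (SE 2.51, edgeR adjusted p = 0.378) rests on HET2, since it was 2.31 without that library. Without WT3 and HET3, where HET2 is the only female reference, it was -5.22 (SE 2.11). The part of the B-cell precursor transcripts in it was not tested.

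**Figure D2:**
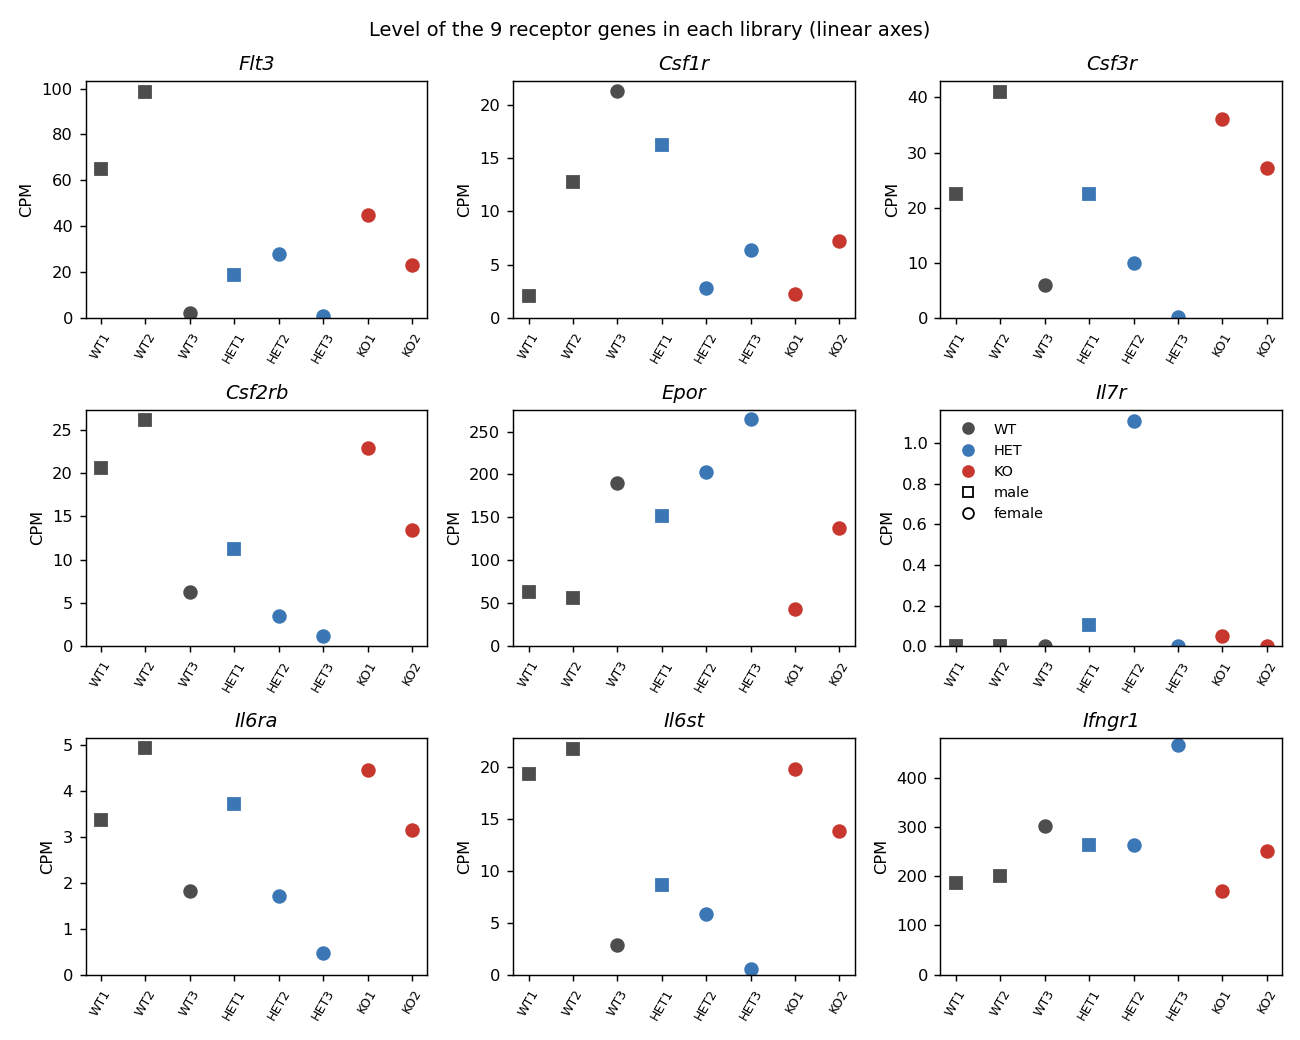
Level of the 9 genes in each library in CPM (linear axes from 0), coloured by genotype, with squares for male and circles for female embryos. Flt3, Csf3r, Csf2rb, Il6ra and Il6st are lowest in HET3, Epor and Ifngr1 are highest there, and in Il7r HET2 stands alone at 1.11 CPM.

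**Figure D3:**
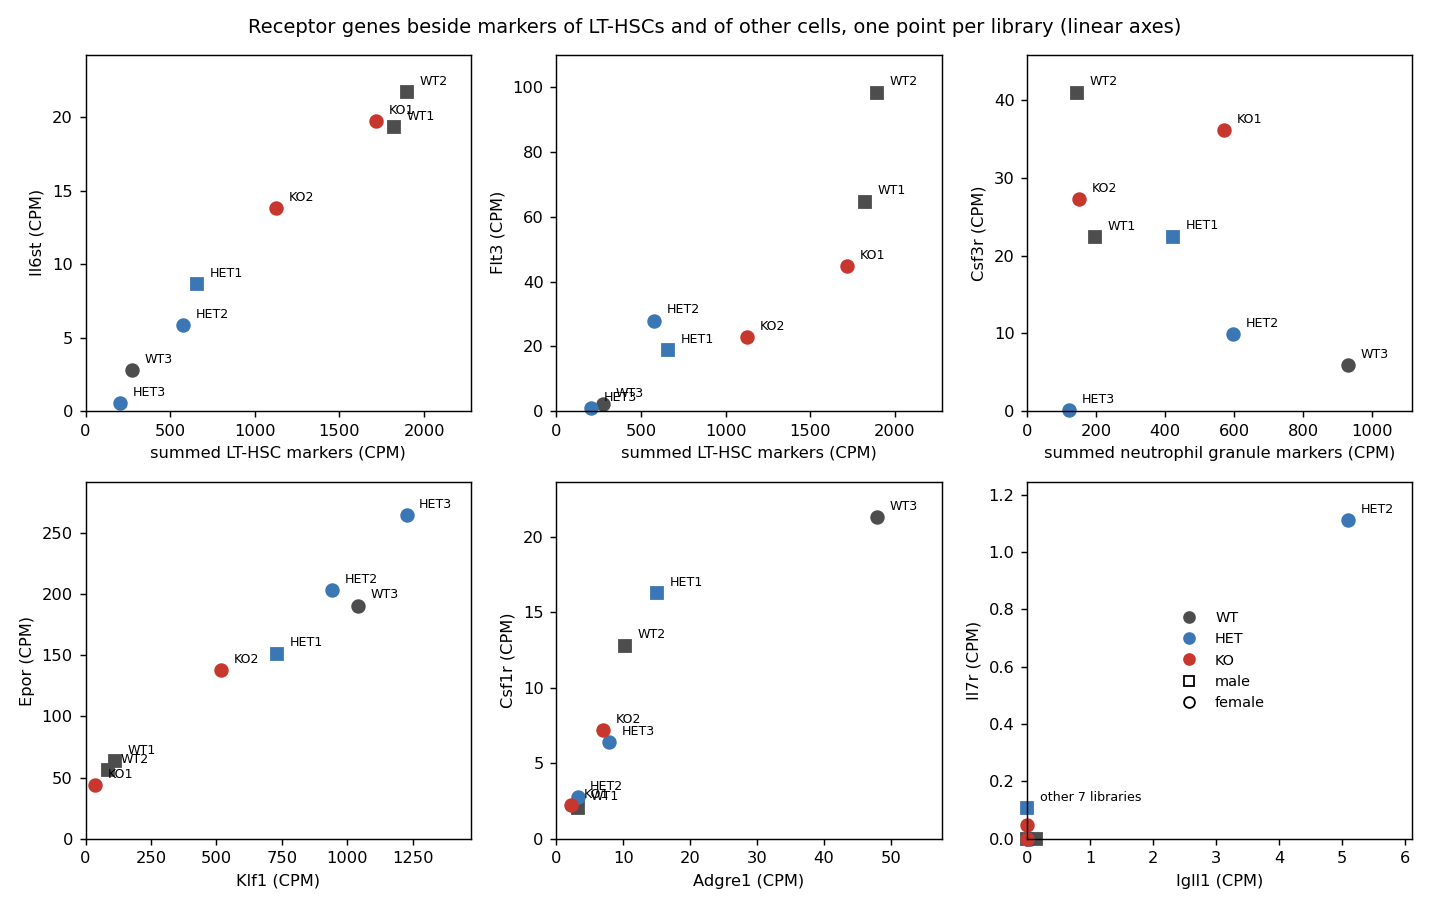
Receptor genes beside markers of LT-HSCs and of other cells in CPM (linear axes), one labelled point per library. Il6st and Flt3 are plotted against the summed LT-HSC markers, Csf3r against the summed neutrophil granule markers, Epor against Klf1, Csf1r against Adgre1 and Il7r against Igll1; WT3 and HET3 lie at the low end of the LT-HSC axis at 276 and 204 CPM, and HET2 is the only library with both Il7r and Igll1 above 1 CPM.

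The comparison of KO with WT/HET asks whether the stem cells without IκBα differ in these receptors. A gene was called where its adjusted p was under 0.05 and it was more than 1 away from 0 in log2 fold change. On this rule edgeR called 0 of the 9 genes and 0 of all 20610 (0%), with 5196 genes at an unadjusted p under 0.05. Of the 9 genes, 4 were higher in KO at an unadjusted p under 0.05 (Csf3r, Csf2rb, Il6ra and Il6st), beside 15.7% of all genes, and 1 was lower (Ifngr1), beside 9.48%. DESeq2 with apeglm called 2 of the 9 as higher (Csf2rb and Il6st), beside 6.50% of all genes, and 0 as lower, beside 0.597%. No member separated both KO libraries from all 6 references, which 3.05% of genes did upward and 1.79% downward. Against the 3 female references alone, both KO libraries were above in 4 genes (Csf3r, Csf2rb, Il6ra and Il6st), beside 27.1% of all genes, and below in 2 (Epor and Ifngr1), beside 21.4%. With HET2 as the only female reference, the counts were 4 above, beside 37.7% of all genes, and 3 below, beside 33.5%. The exact two-sided permutation test of log2 CPM gave p of 0.214 to 1 for KO against WT/HET, where 0.0714 is the smallest possible, and 0.2 to 1 against the female references, where 0.2 is the smallest possible. Leaving out sex took the number of members at an unadjusted p under 0.05 to 0, beside 2.00% of all genes. Leaving out WT3 and HET3 took it to 2 higher (Csf3r and Csf2rb), beside 4.07%, and 1 lower (Il7r), beside 1.02%. The count in either direction was 1 without KO1, beside 7.91%, and 3 without WT1, beside 22.0%, and without HET3, beside 16.0%. Without HET2, edgeR called 730 genes, 1 of them a member (Flt3), and without HET1 it called 8 genes and no member.

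**Figure D4:**
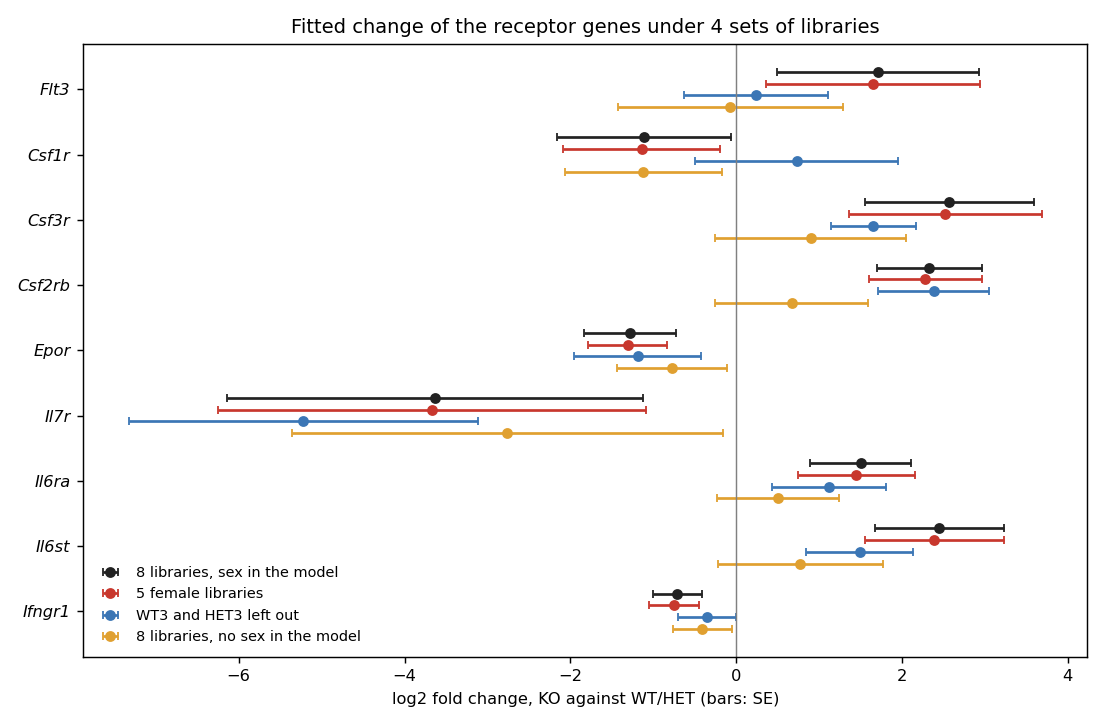
Fitted log2 fold change of KO against WT/HET for the 9 genes (points, with bars of 1 SE) in 4 sets of libraries. The values of all 8 libraries with sex in the model lie close to those of the 5 female libraries, which the model fixes since both KO libraries are female. Csf2rb is between 2.28 and 2.38 in all fits but that without sex, and the fit without WT3 and HET3 has HET2 as its only female reference. Csf1r changes sign without WT3 and HET3.

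HET was compared with WT to ask whether loss of 1 allele already moved the receptors. No gene passed the call rule in edgeR (0 of 20610, 0%), and 747 were at an unadjusted p under 0.05, 3.62% of those tested. DESeq2 called 64 genes and none of the 9. Csf2rb was lower in HET, with a log2 fold change of -1.24 (SE 0.462, edgeR adjusted p = 0.932), and Epor higher, with 0.82 (SE 0.256, adjusted p = 0.932), and neither passed adjustment. The exact permutation test gave p of 0.2 for both and 0.2 to 0.9 for all 9, and 0.1 is the smallest that 3 against 3 allows. With the replicate number as a block, 4 of the 9 genes were at an unadjusted p under 0.05, beside 5.21% of all genes. Of the 9, 0 were called. The 4 were Csf2rb (-1.60), Epor (0.86), Flt3 at -1.62 (SE 0.291) and Il6st at -1.68 (SE 0.512). In that fit WT2 and HET2 are the only same-numbered libraries that differ in sex, and the sex term takes up their difference. The HET against WT value then rests on WT1 with HET1 and WT3 with HET3, and little is left to estimate the spread. Flt3 was at 0.22 (SE 2.13) without the block. Also without the block, the count was 5 when HET2 was left out, beside 14.2% of all genes (135 genes called, no member). It was 0 without WT1, without WT2 or without HET1, beside 1.40%, 1.31% and 2.65%. For Csf2rb the order of the means, WT 17.7 CPM ± 10.2 (SD, n = 3), HET 5.28 ± 5.32 (n = 3) and KO 18.2 ± 6.70 (n = 2), did not run with the number of intact alleles. For Epor the means were 103 ± 75.4, 206 ± 56.7 and 90.7 ± 66.5 CPM.

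Among the WT and HET libraries, males were set against females, which is also total against polyA RNA by label. In edgeR 3 genes were called (0.0146%), none of them a receptor of the 9, and 2 of the 9 were at an unadjusted p under 0.05, beside 22.7% of all genes. Csf2rb was higher in males, with a log2 fold change of 2.10 (SE 0.471, edgeR adjusted p = 0.176), and Epor lower, with -1.15 (SE 0.258, edgeR adjusted p = 0.176). All 3 male libraries were above all 3 female ones in 4 genes (Csf3r, Csf2rb, Il6ra and Il6st), beside 21.1% of genes, and below in Epor, beside 17.5%. DESeq2 called 1838 genes and 3 of the 9. With the replicate block edgeR called 0 genes, and 0 members were at an unadjusted p under 0.05, beside 1.44% of all genes. In that fit the male against female value rests on the single pair WT2 and HET2, so few calls can be reached. Without the block, edgeR called 2998 genes and 5 members (Flt3, Csf3r, Csf2rb, Epor and Il6st) when HET2 was left out. When HET1 was left out it called 1482 genes and 1 member (Epor). Csf3r, Csf2rb, Il6ra and Il6st were thus higher both in the male references and in the female KO libraries than in the female references.

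The other genes of these pathways were taken as lists and described by counts beside the median log2 fold change of all genes tested, 0.13. Of 31 other receptor genes tested, 16 were higher in KO at an unadjusted p under 0.05, beside 15.7% of all genes, and 0 lower, with a median of 1.35. Without WT3 and HET3, 4 were higher, beside 4.07% of all genes, and the median was 1.11. Without sex in the model, 2 were higher, beside 1.08%, and the median was 0.41. Il27ra, the IL-27 receptor chain that pairs with gp130, was at 2.88 (SE 0.74), Crlf2, the TSLP receptor, at 1.84, Il2rg, the common gamma chain, at 1.40 and Il4ra, the IL-4 receptor chain, at 1.97 (all edgeR adjusted p = 0.148). These 4 were at 1.96, 1.14, 0.91 and 1.11 without WT3 and HET3. Il27ra was at 38.5 and 27.7 CPM in the KO libraries and at 2.29, 8.32 and 2.79 CPM in the female references, but at 47.5 and 26.2 CPM in WT1 and WT2. Kit, the stem cell factor receptor, was at 0.51, and 0.45 without WT3 and HET3, and ran from 135 to 231 CPM across the libraries.

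Among the JAK and STAT genes, 4 of 11 were higher at an unadjusted p under 0.05 and 0 lower, with a median of 0.60. In this fit 15.7% of all genes were higher and 9.48% lower, which stands beside each list below. Jak3, the kinase bound by the common gamma chain, was at 2.20 (SE 0.459) and Stat4 at 2.62 (SE 0.991), whereas Jak2, the kinase of EPOR, and Stat5a and Stat5b were at 0.23, -0.10 and 0.03. Without WT3 and HET3, Jak3 was at 1.45, Stat4 at 1.44, Jak2 at 0.13, Stat5a at -0.04 and Stat5b at 0.07. Of 19 feedback inhibitors and adaptors, 10 were higher and 0 lower, with a median of 0.73. The lowest p belonged to Ptpn6, the phosphatase SHP-1, at 1.23 (SE 0.266), Socs1, an inhibitor of JAK kinases, at 3.56 (SE 0.776), Socs2 at 1.81 and Ptprc, the CD45 gene, at 2.75, and without WT3 and HET3 these were at 1.03, 2.64, 1.53 and 1.83. Of 11 receptor target genes, 6 were higher and 0 lower, with a median of 0.78, and the named ones were Irf1, Pim2 at 1.27, Dusp6 at 1.44 and Pim1, a kinase gene induced by STAT factors, at 2.33. Pim2 was at 1.07, Dusp6 at 0.45 and Pim1 at 1.10 without WT3 and HET3. The edgeR adjusted p of all genes in these lists was 0.148 or more. Without WT3 and HET3, 1 JAK or STAT gene, 3 inhibitors and adaptors and 1 target gene were higher at an unadjusted p under 0.05, beside 4.07% of all genes. Without sex in the model 0 genes of these 3 lists were, beside 1.08%. The 11 LT-HSC markers were higher in KO in the fit of all libraries with sex, with a median of 2.77. All 11 were at an unadjusted p under 0.05, beside 15.7% of all genes, and 2 of them without WT3 and HET3, beside 4.07%. The part of that difference in the receptor values was not tested.

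Most ligand genes were at or near 0 reads in these cells. Of 18, only 8 reached 10 reads in all, and Csf3, Il3 and Ifng had 0 reads in the 8 libraries. Flt3l was the most abundant, at a mean of 6.76 CPM with a log2 fold change of 0.29, and 0.06 without WT3 and HET3. Clcf1, a ligand of the gp130 family, was the 1 ligand of these 8 at an unadjusted p under 0.05, beside 15.7% of all genes higher. Its log2 fold change was 3.32 (edgeR adjusted p = 0.154) at a mean of 2.74 CPM, and 2.81 without WT3 and HET3.

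The gene whose log2 CPM was most like each receptor over the 8 libraries, among the genes with a mean of at least 10 CPM, was found as a description. It was Gimap6 for Il6st (Pearson r of 0.999), Slc39a8 for Epor (0.997), Chrnb1 for Flt3 (0.993), 1700025G04Rik for Csf3r (0.993), Kctd1 for Csf2rb (0.989), Gsap for Il6ra (0.986), Ppp4r3b for Ifngr1 (0.985) and Scoc for Csf1r (0.958). These points share their libraries and the same spread between libraries, and the best of many genes is high by selection. Gimap6 ran from 10.8 CPM in HET3 and 64.2 CPM in WT3 to 744 and 775 CPM in WT1 and WT2, with 682 and 448 CPM in KO1 and KO2, the order of Il6st but for KO1, which was below WT1 in Gimap6 and above it in Il6st. Slc39a8, a zinc transporter gene, ran from 16.0 CPM in KO1 to 149 CPM in HET3, the libraries where Epor was lowest and highest.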

How the data were processed

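The bulk RNA-seq of 8 LT-HSC libraries was analyzed, grouped by the condition and replicate number in the sample labels. The members and gene lists were chosen with earlier results of these data known. Per the labels and methods, the authors trimmed reads (Trim Galore 0.6.6), aligned them to GRCm38 (STAR 2.7.8), kept unique reads and deposited raw counts per gene, so reads shared by near-identical genes are missing. The strand column is not given in the sources used here. The cDNA was amplified by long-distance PCR. The authors also deposited log2 values from DESeq2 1.38.3, corrected for sex, which were used only as an alternative.

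Genes with at least 10 reads over the 8 libraries were kept. After TMM normalization, edgeR 4.0.16 (R 4.3.3) was run in its legacy quasi-likelihood form on a model of genotype and sex, where WT and HET together form the reference. HET against WT and male against female used the 6 WT and HET libraries. Adjusted p are Benjamini-Hochberg over all genes tested. SE is the fold change divided by the root of the F statistic. DESeq2 1.42.0 with apeglm 1.24.0 was an alternative. Named list genes had an unadjusted p under 0.05, an absolute log2 fold change over 1 and a mean of at least 5 CPM, up to 4 a list by p, and other named genes were partners or markers. Permutation tests used log2 CPM with a prior count of 2. The study's methods give 3 mice per genotype and the labels name no embryo or litter, and libraries of a group differed by more than sampling noise (chi-square per gene of 18.9 to 261). Deviations from the group means correlated between same-numbered WT and HET libraries (r of 0.293, 0.198 and 0.590), and between KO1 and WT1 or HET1 (0.278 and 0.244), and were at -0.346 and -0.124 between KO2 and WT2 or HET2. The 2 KO libraries deviate from their mean as mirror images, so their r cannot show a pairing. Every same-numbered pair was over 0.1 in WT and HET, so the block is given beside HET against WT. This is a hint from the data, not the labels, and the differently numbered WT2 and HET1 reached 0.403 and WT1 and HET2 0.226. Positions and exon lengths are those of GENCODE M21 on GRCm38. The tests were also run on simulated counts, whose outcome is not given here. Those counts held no sex effect and no loss of markers in WT3 and HET3, so they do not bear on these limits.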

Additional observations from a re-analysis of the deposited data

Results flagged for a closer look

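Il7r stood at 1.11 CPM in HET2, far from the other 5 WT and HET libraries, whose highest value was 0.106 CPM. The gap was 0.904 of the range of the 6 libraries, above the critical value of Dixon's test, which chance passes in about 1 in 20 groups. None of the other 8 genes passed this test among the 6 libraries, and the nearest was Ifngr1 in HET3 with a gap of 0.589 of the range.

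Csf1r moved in opposite directions from WT to HET in the 2 sexes. In males HET1 was above both WT libraries, by 1.63 in mean log2 CPM, and in females both HET libraries were below WT3, with a mean difference of -2.31. Each sex has 1 genotype with a lone library, and the difference was not tested.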

How the results depend on the processing

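For KO against WT/HET, edgeR called 0 genes and 0 members. DESeq2 called 1825 genes without and 1463 with apeglm, edgeR with no filter on low counts 1106 and against WT alone 661, each with 2 members, and the edgeR version 4 form called 1 gene and no member. The causes were not tested. Members at an unadjusted p under 0.05 were 5, 4 higher beside 15.7% of all genes and 1 lower beside 9.48%. They were 1 with 10 reads required in every sample, which drops Csf3r, Il7r, Il6ra and Il6st, and 1 against HET alone. They were 0 with no sex covariate, beside 2.00%, and 1 with the replicate block with sex. Without WT3 and HET3, an alternative chosen after seeing the data, 2 were higher, beside 4.07%, and 1 lower, beside 1.02%. Where a count of members in this section has no share of all genes beside it, that share was not counted. Such a count is not a result about the members. The sign turned for Flt3 with no sex covariate (-0.07), for Il7r against WT alone (2.36), and for Csf1r with the replicate block (1.08), against HET alone (0.04) and without WT3 and HET3 (0.73). With the replicate block none of the 5 members stayed at an unadjusted p under 0.05, and the 1 member there was Il7r, at -7.52, beside 589 of all 20610 genes.

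For HET against WT, DESeq2 called 64 genes and edgeR with no filter 128. Members at an unadjusted p under 0.05 were 2, beside 3.62% of all genes, and 4 with the replicate block, beside 5.21%. They were 1 with all 8 samples and 0 with no sex covariate. Flt3 turned to -1.80 with no sex covariate and to -1.62 with the replicate block, and Csf1r to 0.58 with the block. For male against female, 3 genes were called, and 1838 by DESeq2, 2121 with no filter, 0 with 10 reads in every sample and 0 with the replicate block. Members called were 0, and 3 by DESeq2 and 5 with no filter. Members at an unadjusted p under 0.05 were 2, beside 22.7% of all genes, and 5 by DESeq2, 7 with no filter and 4 with all 8 samples. They were 0 with the block, beside 1.44%, and Ifngr1 turned to 0.17 there. In the block fits of WT and HET the sex value rests on WT2 and HET2, and the HET value on the other same-numbered pairs.

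With each library left out in turn, KO against WT/HET had 0 to 730 genes called, 0 to 1 members called and 1 to 6 members at an unadjusted p under 0.05, Csf1r ran from -2.17 to 0.03 and Il7r from -5.93 to 2.31. HET against WT had 0 to 135 genes called and 0 to 5 members at an unadjusted p under 0.05, Flt3 ran from -2.12 to 2.75, Csf1r from -2.22 to 1.13, Csf3r from -1.61 to 0.04 and Il6st from -1.62 to 0.19. Male against female had 1 to 2998 genes called, 0 to 5 members called and 1 to 7 at an unadjusted p under 0.05, Csf1r ran from -1.57 to 1.83 and Il7r from -2.82 to 2.95. The mean differences in log2 CPM ran from -1.61 to 0.05 for Epor and from -0.78 to 0.08 for Il7r in KO against WT/HET, from -1.51 to 0.29 for Il7r against the female references, and from -1.30 to 0.35 for Csf1r in HET against WT. Where KO was left with 1 library, that library is assumed to vary like the other groups.

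Depth limits Il7r, with 25 reads in all, and Csf3r, Il6ra and Il6st in HET3, with 2, 8 and 9 reads. With 2 KO libraries, both female, small differences cannot be seen.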
